A study of Homo sapiens with 8 samples.

Results

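The α-satellite arrays of chromosomes 2 and 20 were examined among peaks of DNA pulled down with α-satellite RNA probes. Members were the listed peaks that start between 92 and 96 Mb on chromosome 2 or between 25 and 34 Mb on chromosome 20, on genome build hs1. The asynchronous list held 1246 such peaks on chromosome 2 and 1459 on chromosome 20, together 2705 of 32035. The mitotic list held 1166 and 1310, together 2476 of 33553. Over both lists this made 5181 of 65588 peaks.

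The cells were RPE1, retinal pigment epithelial cells of human origin that were immortalised and grow as an established line, of the genotype labelled WT in every library. In ChIRP-seq, biotinylated antisense probes capture an RNA from sheared chromatin together with what is bound to it, and the co-captured DNA is sequenced. The labels list 8 libraries in 6 groups: for the cells labelled Async (asynchronous) and for those labelled Meta (mitotic), 1 Input, 1 Scr and a pair of α-satellite libraries labelled Odd and Even. The data used here were 1 peak list per condition, called after Odd and Even had been merged, so there was no replicate error. No difference between conditions was therefore tested, and each interval below is an exact 95% interval for counting error only that treats neighbouring peaks as independent. Input and Scr libraries were not analysed here. The peak lists themselves do not tell DNA held through RNA from DNA paired directly with the probes.

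Centromeres are the sites where the kinetochore forms and spindle fibres attach in mitosis. Human centromeres lie on α-satellite, a tandem repeat whose monomers are grouped into higher-order repeats that recur with little divergence along an array. Arrays are sorted into suprachromosomal families by their monomer types, and those of chromosomes 2 and 20 belong to family 2, which descends from an alternating pair of types. α-Satellite is transcribed, and part of its RNA stays on centromeric chromatin. No annotation of build hs1 was used here, so peaks are given by position, and the active array was not separated from older flanking α-satellite. No sequence is shown, since none of build hs1 was at hand.

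The first comparison asked how the recovered DNA was laid out on each chromosome. Within its window chromosome 2 carried essentially 1 compact block and chromosome 20 a larger block followed by scattered smaller ones. Peaks of both lists at most 100 kb apart were joined into regions, and each chromosome's largest region is the joined region in which peaks cover the most base pairs. On chromosome 2 the largest region was chr2:92299202-94688948, 2390 kb long, and held 99.02% (asynchronous) and 97.4% (mitotic) of the covered length of the window. Only 1 smaller region of at least 5 peaks lay beside it, 312 kb further along. On chromosome 20 the largest region was chr20:26281568-29521572, 3240 kb long, and held 91.4% and 90.7%. There, 4 smaller regions of at least 5 peaks followed on the long-arm side, the last ending at position 32015124. The window also held 4 isolated mitotic peaks of 166 to 246 bp, on both sides of these regions. No isolated asynchronous peak was listed in either window. The chromosome 20 window reached further past its largest region than that of chromosome 2. Smaller regions of chromosome 20 began 1802 and 2103 kb past the largest one, distances that the chromosome 2 window did not reach. The contrast in layout and the shares of the window therefore depend in part on the windows.

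The chromosome 20 block was covered more completely than that of chromosome 2 in both lists. Asynchronous peaks covered 71.6% of the chromosome 2 region and mitotic peaks 73.5%. The shares were 82.7% and 83.5% of the chromosome 20 region. In covered length this was 1710786 and 1755469 bp on chromosome 2 against 2678234 and 2706646 bp on chromosome 20. Stretches in neither list summed to 430182 bp of the chromosome 2 region, as 1079 gaps with a median of 254 bp. On chromosome 20 they summed to 352369 bp, or 10.9%, as 882 gaps with a median of 207 bp. The 3 longest gaps of chromosome 2 were short, at 3852, 3706 and 3308 bp. The longest of chromosome 20 measured 25508 bp (chr20:26374495-26400002) and 16229 bp (chr20:26327322-26343550), starting 92.9 and 45.8 kb into the region, followed by 4379 bp (chr20:26525397-26529775).

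Coverage ran along the blocks in different shapes, and both lists traced the same shape. In bins of 100 kb that lie wholly inside the largest region, the chromosome 20 block had a long, nearly filled middle. In 15 of its 32 bins at least 90% was covered in both lists. Of these, 12 followed each other from 27.3 to 28.5 Mb, where 94.8% of the asynchronous and 96.0% of the mitotic length was covered. Peaks there were wide, with median widths of 2843 bp (asynchronous) and 3320.5 bp (mitotic). Another 3 bins lay from 28.6 to 28.9 Mb, at 91.5% and 92.9%.

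Beyond these bins coverage stayed at 86.6% and 86.9% in the bin from 28.9 Mb and then fell steeply. At 29.1 Mb, over the 100 kb to either side, asynchronous coverage went from 87.8% to 47.1% and mitotic coverage from 88.8% to 40.3%. From 29.1 to 29.4 Mb it stayed at 56.1% and 51.8%, with median widths of 781.5 and 717 bp. From 29.4 to 29.5 Mb it was back at 83.2% and 82.6%. On the short-arm side of the filled stretch coverage was uneven. It was lowest of all 32 bins from 26.3 to 26.4 Mb, at 40.7% and 39.5%. It was 59.6% and 61.1% from 26.5 to 26.6 Mb, 84.5% and 85.9% from 26.8 to 26.9 Mb, 74.2% in both lists in the bin from 27.0 Mb and 82.5% and 81.4% from 27.2 to 27.3 Mb.

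On chromosome 2 a single bin of 23 reached 90% in both lists, from 93.8 to 93.9 Mb, with 96.9% of the asynchronous and 98.5% of the mitotic length covered. Here 17 asynchronous and 10 mitotic peaks met the bin, with median widths of 4721 and 9011 bp. The middle of the block was thinly covered. Between 93.0 and 93.6 Mb, 56.5% and 56.8% was covered, by 429 and 426 peaks with median widths of 643 and 644 bp. The bin that ends at 94.1 Mb was at 49.1% and 54.3%. The steepest fall of chromosome 2, at position 93960001, took asynchronous coverage from 95.1% to 54.7% and mitotic coverage from 95.4% to 55.4%.

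**Figure D1:**
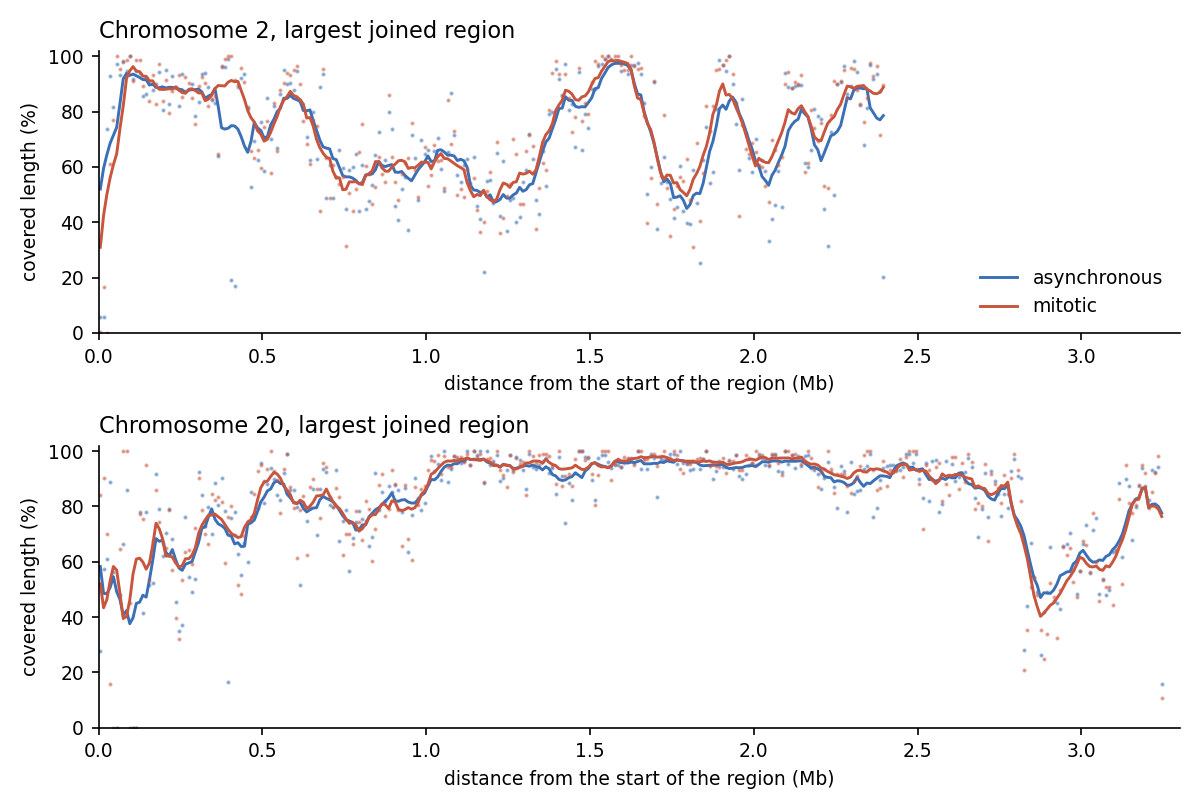
Share of each 10 kb bin covered by peaks (points) and its mean over 10 bins (lines), against distance from the start of the largest joined region of chromosome 2 (top) and chromosome 20 (bottom), for the asynchronous (blue) and mitotic (red) lists. Chromosome 2 dips in its middle, at 56.5 and 56.8% covered, and chromosome 20 holds a nearly filled stretch and a sharp fall further along. First and last bins lie only partly in a region.

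Across the 23 bins of chromosome 2, asynchronous and mitotic coverage correlated at r = 0.950 (Spearman 0.945), and across the 32 bins of chromosome 20 at r = 0.992 (0.978). Bins share the reference sequence and each list's libraries, so these values are descriptions. Bins with more covered length held stronger peaks: coverage and the median fold enrichment correlated at r = 0.845 and 0.879 on chromosome 2 and at 0.818 and 0.827 on chromosome 20, in the asynchronous and mitotic list. Fold enrichment is the authors' value per peak, the pileup over the local background as the peak caller gives it, and was used within each list. Well covered bins held fewer peaks, with r between peak number and coverage of -0.777 and -0.859 on chromosome 2 and -0.501 and -0.569 on chromosome 20. The thinnest full bin of chromosome 20, from 26.3 to 26.4 Mb, went against this, with 7 asynchronous and 3 mitotic peaks of median widths 5645 and 10643 bp and median fold enrichments of 8.84 and 11.04.

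The second comparison set the peaks of the chromosomes side by side. Chromosome 20 peaks were wider and stronger than chromosome 2 peaks in both lists. In the asynchronous list the median width was 823.5 bp on chromosome 2 (quartiles 493 and 1571.5 bp) and 1218 bp on chromosome 20 (570.5 and 2395 bp), against 847 bp over all other listed peaks. In the mitotic list the medians were 846.5, 1170 and 793 bp. Median fold enrichment in the asynchronous list was 8.12 on chromosome 2, 9.52 on chromosome 20 and 7.65 elsewhere, and in the mitotic list 9.27, 10.7 and 7.87. By fold enrichment both chromosomes lay above the rest of each list. By width chromosome 20 did so in both lists, while chromosome 2 was slightly below the rest in the asynchronous and slightly above it in the mitotic list.

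The same order held among the strongest peaks. Of the 25% of asynchronous peaks with the highest fold enrichment, 380 lay in the chromosome 2 window, which is 30.5% of its peaks (27.9 to 33.1%), and 697 in the chromosome 20 window, 47.8% (45.2 to 50.4%). In the mitotic list 490 did so on chromosome 2, 42.0% (39.2 to 44.9%), and 742 on chromosome 20, 56.6% (53.9 to 59.3%). With a fixed limit (fold enrichment 6 or more, −log10 of the adjusted p-value q 5 or more) the chromosomes differed less. In the asynchronous list 77.9% (75.5 to 80.2%) and 83.3% (81.3 to 85.2%) of their peaks passed, against 73.7% of the whole list. In the mitotic list 88.2% (86.2 to 89.96%) and 88.5% (86.7 to 90.2%) passed, against 77.6% of the whole list.

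Peaks of at least 5 kb carried much of the covered length of chromosome 20. The asynchronous list had 119 of them and the mitotic list 145, holding 35.6% and 47.4% of the window's covered length. On chromosome 2 there were 49 and 48, holding 23.1% and 29.0%. Over the whole lists such peaks held 25.8% and 27.6%.

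**Figure D2:**
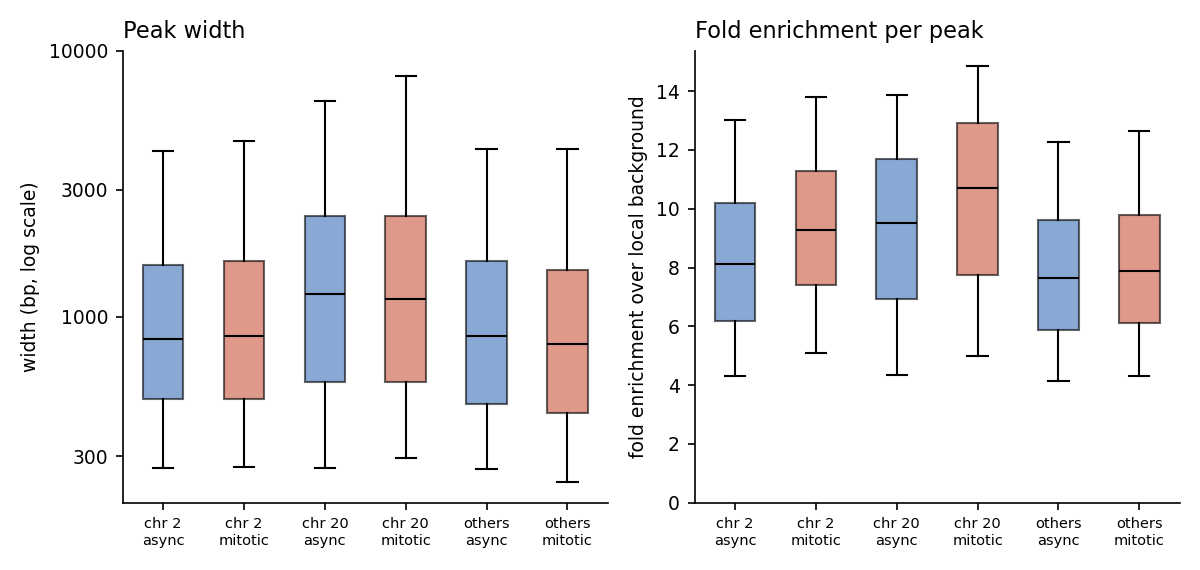
Peak width (left, log scale, bp) and fold enrichment over local background (right) of the peaks in the chromosome 2 and chromosome 20 windows and of all other listed peaks, in the asynchronous (blue) and mitotic (red) lists. Lines mark medians, boxes the quartiles and whiskers the 5th and 95th percentiles of peaks; chromosome 20 has the highest medians in both panels.

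The 3 strongest peaks of each list lay inside the largest regions. On chromosome 20 the highest asynchronous fold enrichment was 17.0 at chr20:26980828-26982272, a peak of 1445 bp, and the mitotic peak there reached 16.8. It was followed by 16.5 at chr20:27547978-27549846 and 16.3 at chr20:29458403-29465448. The highest mitotic values were 17.8 at chr20:27120329-27122069, 17.8 at chr20:29080402-29081221 and 17.3 at chr20:27547954-27549798. The last was the only site among the top 3 of both lists on chromosome 20.

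On chromosome 2 the highest asynchronous values were 15.3 at chr2:92496098-92497023, 15.3 at chr2:92523726-92525272 and 15.2 at chr2:93332927-93333720. The highest mitotic values were 16.6 at chr2:92736551-92737221, 16.2 at chr2:93923028-93923648 and 16.0 at chr2:93648476-93649322. None of these sites was among the top 3 of both lists. Each of the 12 top peaks over both chromosomes and lists met 1 peak of the other list, which covered at least 82.1% of it.

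The widest asynchronous peaks of chromosome 20 measured 25445, 20694 and 18917 bp, at chr20:27739926-27765370, chr20:28124377-28145070 and chr20:27394754-27413670. All 3 lay in the filled stretch, and mitotic peaks covered 98.8% or more of each. The widest mitotic peaks were longer, at 42671 bp (chr20:28740978-28783648), 35096 bp (chr20:27913553-27948648) and 32223 bp (chr20:27733425-27765647). Each took in several asynchronous peaks, 5, 4 and 3 in turn, that covered 97.0% or more of it. A long mitotic peak here was thus mostly made of ground that the asynchronous list covered in pieces.

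On chromosome 2 the widest asynchronous peak measured 23023 bp (chr2:93832526-93855548) and had a nearly identical mitotic counterpart, which covered 23022 bp of it. The other two, at chr2:92376303-92390974 and chr2:94209277-94222272, measured 14672 and 12996 bp and lay wholly inside mitotic peaks. Among the widest mitotic peaks, that of 25343 bp (chr2:93855755-93881097) was covered over 98.8% by 3 asynchronous peaks. The peak of 29382 bp at chr2:92676315-92705696 was covered over only 51.4%. It contained the longest mitotic-only stretch of the region, 13799 bp from 92691898 to 92705696. The widest of all, 39547 bp at chr2:95005502-95045048, lay outside the largest region, and asynchronous peaks covered 12.3% of it.

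The third comparison asked how the mitotic list differed from the asynchronous one in these windows. Both chromosomes had fewer peaks and slightly more covered length in the mitotic list. The intervals of the peak ratios cover counting error only and give no verdict on a difference between conditions. Mitotic peaks numbered 0.936 times (0.863 to 1.01) the asynchronous ones on chromosome 2 and 0.898 times (0.833 to 0.968) on chromosome 20, against 1.05 (1.03 to 1.06) for the whole lists. Covered length went from 1.73 to 1.80 Mb on chromosome 2, a ratio of 1.04, and from 2.93 to 2.99 Mb on chromosome 20, a ratio of 1.02. Over the whole lists the ratio of covered length was 1.01. Within the largest regions of chromosomes 2 and 20 it was 1.03 and 1.01, where the median of 23 chromosomes was 1.01. Joining peaks less than 500 bp apart before counting gave peak ratios of 0.990 and 0.928. The direction of the peak ratio depended on the peaks counted. Among peaks that passed the fixed limit it was 1.06 on chromosome 2, and among the top 25% it was 1.29 on chromosome 2 and 1.06 on chromosome 20. Over the whole lists 23612 asynchronous and 26032 mitotic peaks passed the fixed limit, and the top 25% held 8009 and 8389.

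Mitotic peaks often spanned several asynchronous ones. On chromosome 20, 295 mitotic peaks overlapped at least 2 asynchronous peaks, 22.5% (20.3 to 24.9%), against 12.4% of the whole mitotic list. Conversely, 223 asynchronous peaks overlapped at least 2 mitotic peaks, 15.3% (13.5 to 17.2%), against 14.2% of the whole asynchronous list. On chromosome 2 the counts were 220, or 18.9% (16.7 to 21.2%), and 170, or 13.6% (11.8 to 15.7%). In the mitotic list such peaks held 51.6% of the covered length on chromosome 20 and 47.4% on chromosome 2, against 33.9% over the whole list. In the asynchronous list they held 29.9% and 27.9%, below the 34.0% of the whole list. In both arrays joining was therefore more frequent from asynchronous to mitotic than the reverse, whereas over the whole lists the share of peaks was higher in the asynchronous list. Among the largest regions of 23 chromosomes the mitotic share was the higher in 13. The ratio of mitotic to asynchronous share was 1.47 in the largest region of chromosome 20, rank 1 of 23, and 1.37 in that of chromosome 2, rank 2. The same overlaps are counted from both lists, so this ratio is not independent of the peak ratio. Chromosome 20 also had the lowest peak ratio of the 23 regions, and X, with a peak ratio of 1.18, had the lowest share ratio, 0.411. Chromosome 15, with the next lowest peak ratio, 0.901, had rank 9 by share ratio.

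**Figure D3:**
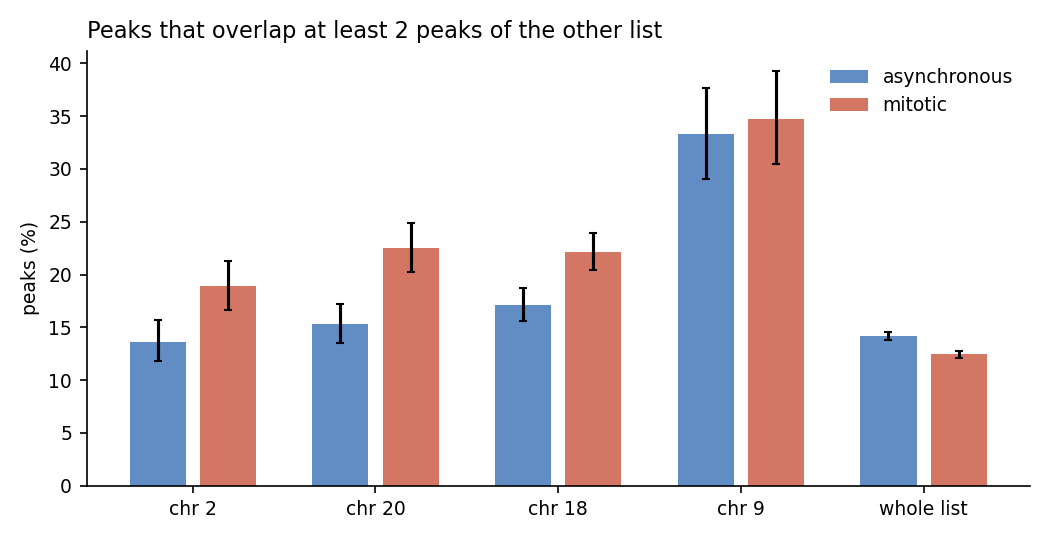
Percent of peaks that overlap at least 2 peaks of the other list, for the chromosome 2 and 20 windows, the largest regions of chromosomes 18 and 9, and the whole lists, in the asynchronous (blue) and mitotic (red) lists. Bars start at 0 and error bars are exact 95% intervals for counting error; on chromosomes 2 and 20 the mitotic bar is the higher, at 18.9% and 22.5%.

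Most peaks had a counterpart. Counting any shared base pair, 1126 asynchronous peaks of chromosome 2 met a mitotic one, 90.4% (88.6 to 92.0%), and 1307 of chromosome 20, 89.6% (87.9 to 91.1%), against 81.9% of the whole list. Of the mitotic peaks 1042, or 89.4% (87.5 to 91.1%), and 1164, or 88.9% (87.0 to 90.5%), met an asynchronous one, against 79.2% of the whole list. In covered length the lists shared 1.52 Mb on chromosome 2 and 2.64 Mb on chromosome 20. The Jaccard index, shared over combined base pairs, was 75.3% and 80.4%, against 67.9% for the whole lists. Higher coverage raises this index on its own, and chromosome 20 had the higher coverage.

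Peaks without a counterpart were short and weak. On chromosome 2 the 120 asynchronous ones had a median width of 449 bp and a median fold enrichment of 5.41, against 897.5 bp and 8.44 for the peaks that were met. The 124 mitotic ones had medians of 418.5 bp and 6.45, against 942 bp and 9.60. On chromosome 20 the 152 asynchronous ones had medians of 397 bp and 5.12, against 1320 bp and 10.1. The 146 mitotic ones had 459 bp and 5.95, against 1319 bp and 11.2. Peaks without a counterpart held between 3.75 and 4.28% of the covered length of their window. The same contrast was seen over the whole lists. Unmet peaks there had medians of 444 bp and 5.30 (asynchronous) and 394 bp and 5.57 (mitotic). Met peaks had 997 bp and 8.32, and 944 bp and 8.61. A shorter peak also has less length with which to meet another.

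Although the same ground was covered, exact peak edges seldom recurred. Of the asynchronous starts, 233 on chromosome 2 (18.7%) and 254 on chromosome 20 (17.4%) lay within 25 bp of a mitotic start, against 17.8% of the whole list. Of the mitotic starts 19.98% and 19.4% lay within 25 bp of an asynchronous one, against 17.0% of the whole list. These shares are close to those of the whole lists. From an asynchronous start, the median distance to the nearest mitotic start was 149 bp on chromosome 2 and 200 bp on chromosome 20. Over the whole asynchronous list it was 155 bp. From a mitotic start to the nearest asynchronous one it was 124 and 128 bp, against 198 bp over the whole mitotic list. Starts were resolved to about 25 bp, since 98.0 to 99.4% of them lay 0 to 5 bp past a multiple of 25 bp. Length found in 1 list was accordingly made of small pieces. On chromosome 2 it came as 1111 asynchronous and 1253 mitotic stretches with medians of 103 and 106 bp, and on chromosome 20 as 1287 and 1433 with medians of 106 and 109 bp.

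Differences of whole bins between the lists were few and sat at or beyond the ends of the large blocks. Bins of 100 kb with at least 10 kb covered in either list were compared, and a ratio of covered length over 1.5 in either direction was counted. In the mitotic list, 1 of 25 bins of chromosome 2 and 4 of 45 bins of chromosome 20 were over 1.5 times higher, against 5.85% of the bins of all chromosomes. Lower by that factor were 0 and 1, against 1.46%. With so few bins these shares were not set apart from those of the whole series. In the largest regions, 0 of 24 bins on chromosome 2 and 1 of 34 on chromosome 20 passed in either direction. That bin was the outermost on the short-arm side, from 26.2 to 26.3 Mb, where covered length went from 8514 to 17476 bp.

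The bins with the lowest and highest ratios inside the chromosome 2 block differed little. The lowest ratios were 0.890 in the first full bin, from 92.3 to 92.4 Mb, 0.954 from 92.9 to 93.0 Mb and 0.968 from 93.0 to 93.1 Mb. The highest were 1.13 from 94.3 to 94.4 Mb and 1.12 from 92.7 to 92.8 Mb. The bin that ends at 95.1 Mb, outside the block, had 2.82. On chromosome 20 the lowest inside the block was 0.856 from 29.1 to 29.2 Mb, where coverage falls. The other low bins, 0.216 from 31.3 to 31.4 Mb and 0.813 from 31.9 to 32.0 Mb, and the high ones, 4.81 from 31.4 to 31.5 Mb and 2.07 from 29.8 to 29.9 Mb, lay in the smaller regions.

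Near the short-arm end of the chromosome 20 block, the longest stretches of 1 list lay close together. Starting at most 87.0 kb into the region, the mitotic list alone covered 7481 bp (chr20:26284570-26292050), 5899 bp (chr20:26368596-26374494) and 4602 bp (chr20:26348473-26353074). The asynchronous list alone covered 5645 bp (chr20:26321677-26327321) and 5570 bp (chr20:26313553-26319122) there. At the same end of the chromosome 2 block the asynchronous list alone covered 7322 bp (chr2:92309551-92316872) and 3957 bp (chr2:92319515-92323471). At its other end the mitotic list alone covered 5629 bp (chr2:94683320-94688948).

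Apart from mitotic peaks in the one on chromosome 2, which covered 67.6% of it, the smaller regions were thinly covered. Their Jaccard indices were lower than those of the blocks, 76.9% on chromosome 2 and 86.5% on chromosome 20. Lower coverage lowers this index on its own. The region chr2:95000702-95070896 had 9 asynchronous peaks covering 16850 bp and 4 mitotic peaks covering 47481 bp. Its widest asynchronous peak measured 4122 bp, and the lists shared 10201 bp, a Jaccard index of 18.8%. On chromosome 20 the region chr20:30566278-30924320 came closest to the block. It held 137 and 120 peaks, 33.6% and 34.8% was covered, and the Jaccard index was 57.4%. Its highest fold enrichment, 16.3 and 17.2, was near that of the block, at 17.0 and 17.8.

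The region chr20:31624555-32015124 held 94 and 81 weaker peaks, with medians of 5.20 and 6.49. Its covered share was 21.5% and 20.9% and its Jaccard index 23.7%. In the region chr20:29729978-29948421, 18 and 19 peaks covered 28616 and 51788 bp, a ratio of 1.81, and the Jaccard index was 25.4%. The region chr20:31323805-31492571 held 7 and 6 peaks that covered 18102 and 20026 bp but shared only 857 bp, a Jaccard index of 2.30%. Most of its asynchronous length was a peak of 12093 bp (chr20:31323805-31335897) that met no mitotic peak. Most of its mitotic length was a peak of 14632 bp (chr20:31464101-31478732) that met no asynchronous peak. These peaks, with fold enrichments of 8.42 and 9.72, were the widest of their lists on chromosome 20 without a counterpart.

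The fourth comparison placed both blocks among the largest regions of all 23 chromosomes with peaks. Chromosome 2 lay near the middle and chromosome 20 further up. By covered share chromosome 20 had rank 6 and chromosome 2 rank 11 in both lists, where the median was 70.7% (asynchronous) and 72.9% (mitotic). By median fold enrichment in the largest region, at 10.2 and 11.3, chromosome 20 had rank 4 in both lists. Chromosome 2, at 8.13 and 9.26, had ranks 13 (asynchronous) and 10 (mitotic). By Jaccard index of the region chromosome 20, at 86.5%, had rank 4 and chromosome 2, at 76.9%, rank 10. Among the 23 regions that of chromosome 20 had the fewest mitotic peaks per asynchronous peak, at 0.898, followed by chromosome 15 at 0.901.

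Chromosomes 18 and 9 also carry family 2 arrays. The largest region of chromosome 18 (chr18:15542879-21125721) lay between chromosomes 2 and 20 in coverage, at 78.3% and 81.3%, and in median fold enrichment, at 8.85 and 10.4. Of its peaks 17.1% and 22.1% overlapped at least 2 of the other list, against 13.7% and 18.8% in the chromosome 2 region and 17.2% and 25.4% in that of chromosome 20. Chromosome 9 (chr9:44938730-47606780) had the most complete coverage of these 4, at 87.7% and 89.2%, with far fewer and wider peaks. Its median width was 2723 and 3047.5 bp and it had 183 and 177 peaks per Mb, against 518 and 486 on chromosome 2 and 371 and 333 on chromosome 20. Chromosome 2 was the one of the 4 with the lowest coverage, the narrowest peaks and the most peaks per Mb in both lists. These 4 are not the whole family. Chromosome 22, also assigned to it below, had lower coverage than chromosome 2, at 70.7% and 72.9%, with wider and fewer peaks per Mb.

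**Figure D4:**
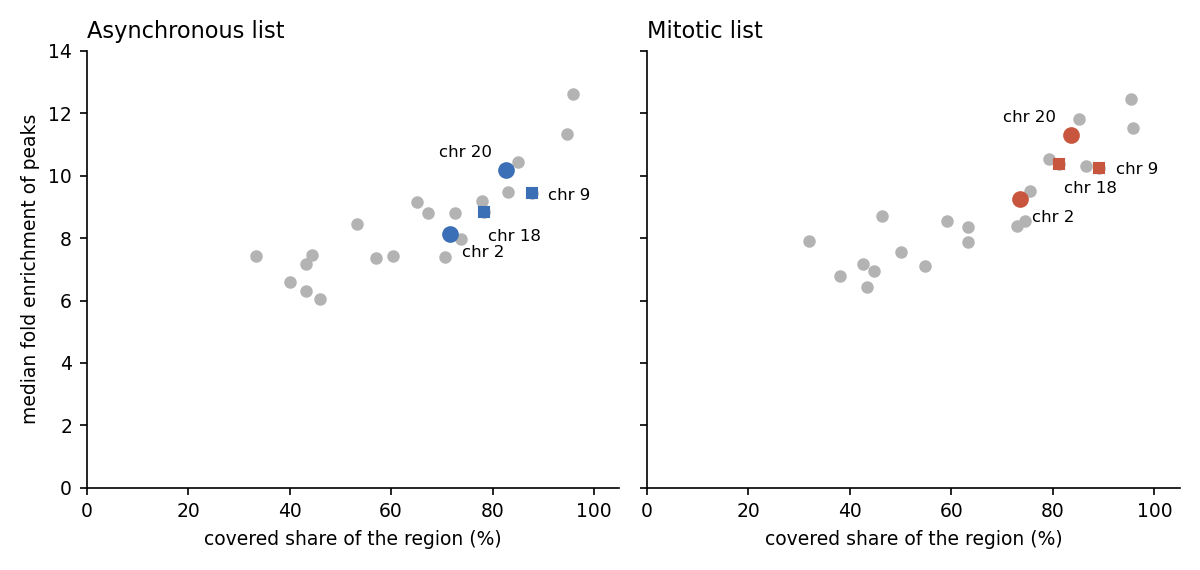
Median fold enrichment of peaks against covered share of the largest joined region of each of 23 chromosomes (grey), in the asynchronous (left) and mitotic (right) list. Chromosomes 2 and 20 are large coloured circles and chromosomes 18 and 9 coloured squares; chromosome 20 lies above and to the right of chromosome 2 in both lists.

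Peak names carry running numbers that rise along both chromosomes, and some numbers have no listed peak. In the largest region of chromosome 2, 72.6% (asynchronous) and 72.7% (mitotic) of the numbers were listed. In that of chromosome 20, 79.3% and 78.9% were listed. Over the whole lists 42.4% and 22.4% were. The largest regions of chromosomes 18 and 9 were similar to these blocks, at 74.1% and 76.1% and at 79.2% and 80.7%. Over the windows the order of chromosomes 2 and 20 turned. There 71.1% was listed in both lists on chromosome 2, and 64.0% and 61.9% on chromosome 20. What became of the other numbers is not stated, so peak counts and gaps describe the lists as deposited.

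The last description concerned the order of peaks. On chromosome 20, a distance of about 2.7 kb led among peak starts and among peak ends in both lists, and on chromosome 2 no distance led in both lists. Start-to-start distances of at most 5 kb were tallied with a moving window of 51 bp. Nearly all starts lay close to multiples of 25 bp. A window centred near such a multiple can therefore take in more grid steps than others, which can raise its count against the median window. On chromosome 20 the most frequent distance was 2699 bp in the asynchronous list, with 61 pairs against a median of 26 per window. It was 2677 bp in the mitotic list, with 61 pairs against 23. Peak ends gave 2698 and 2701 bp, with 59 and 69 pairs against medians of 26 and 23. Midpoints gave 2687 bp in the asynchronous list but 3811 bp in the mitotic list.

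On chromosome 2 the leading distances changed with the list and the position used. Starts gave 1425 bp (asynchronous) and 2400 bp (mitotic), with 60 pairs against a median of 36 and 58 against 33. Ends gave 4024 and 4775 bp, and midpoints 1489 and 2789 bp. At the distance of 2699 bp chromosome 2 starts had 45 and 39 pairs, 1.25 and 1.18 times the median window, against 2.35 and 2.26 times on chromosome 20. Midpoints did not separate the chromosomes in the asynchronous list, where this distance had 60 pairs on chromosome 2 and 45 on chromosome 20, each 1.67 times the median. Among asynchronous starts of chromosome 2 a distance of 2673 bp came next after the leading one, with 53 pairs, 1.47 times the median.

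The recurrence on chromosome 20 was also counted in parts of the region. Between 26.5 and 27.5 Mb, a part picked after the counts had been seen, starts had 35 asynchronous and 32 mitotic pairs in the window at 2699 bp, against medians of 11 and 10. In the rest of the region they had 26 and 20 pairs against medians of 15 and 13. In that rest about 2.7 kb still led in the mitotic list, with 27 pairs at 2677 bp among starts and 33 at 2701 bp among ends, against medians of 13. In the asynchronous list other distances led there, 3780 bp among starts and 3424 bp among ends. From 26.5 to 27 Mb there were 260 asynchronous and 249 mitotic starts, and from 27.5 to 28 Mb, in the filled stretch, 111 and 91. The lists share 1 reference sequence, so the second is no independent count of the distance.

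**Figure D5:**
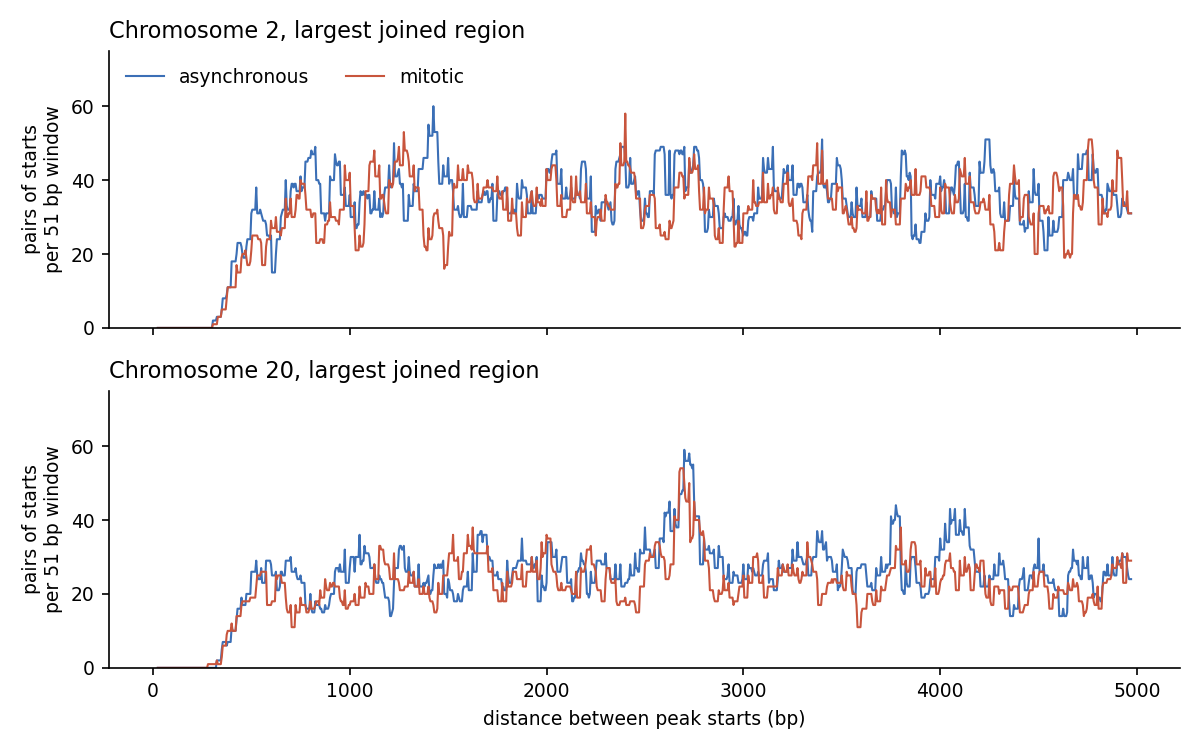
Number of pairs of peak starts per moving window of 51 bp against the distance between them (bp), in the largest joined region of chromosome 2 (top) and chromosome 20 (bottom), for the asynchronous (blue) and mitotic (red) lists. Both lists of chromosome 20 rise near 2.7 kb, and the highest points of chromosome 2 differ between the lists. Lines are drawn at steps of 5 bp, so they can pass below the maxima of 61 pairs given above.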

How the data were processed

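Genomic DNA from ChIRP with α-satellite probes was sequenced. Tools named in the submitters' processing notes, all without versions, are MACS2, Bowtie2 and fastp; the build is hs1. For calling settings, the control and the placement of reads that fit many repeat copies, nothing is stated. Per the labels, each deposited list comes from the merged Odd and Even libraries; the lists have no header and give no library depth. What each column holds was inferred from its values and from the order MACS2 uses. The authors' deposited pileup signal has no stated scaling and was not used. The authors' deposited fold enrichment (a ratio over local background) and deposited −log10 q ranked and filtered peaks within a list. 3 further unnamed columns were not used.

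Peaks were selected by start position, joined (gap 100 kb), overlapped (1 bp), binned (100 and 10 kb) and measured for distances. Runs of filled bins, steps, peak edges and multiple overlaps were added after the lists had been seen. Members and tests were chosen with earlier results of these data known. Named sites were, per chromosome, the 3 strongest and 3 widest peaks of each list, the 3 bins with the highest and lowest ratios, the 3 longest gaps and all smaller regions of at least 5 peaks; the longest stretches of 1 list were added after their values were seen. Alternatives varied the peak limit, the overlap, the gap, the window, the bin size, the position used and the weighting of peaks by width. No gene is named, and no sequence was searched, since the tables at hand are of another build. The code was tested on simulated data. Scripts ran in Python 3.11.15 (intervals from scipy 1.17.1, tables with pandas 2.3.3 and numpy 2.4.6, figures with matplotlib 3.10.9).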

Additional observations from a re-analysis of the deposited data

How the results depend on the processing

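No paired analysis was possible because each condition is 1 list of merged libraries. The largest region alone, or joining peaks less than 500 bp apart, left the peak ratios within the counting interval. The fixed limit gave peak ratios of 1.06 on chromosome 2 and 0.954 on 20 and covered-length ratios of 1.11 and 1.05. The top 25% gave 1.29 on chromosome 2, 1.06 on 20, and covered-length ratios of 1.38 and 1.18. The peak ratio of chromosome 2 thus passed 1 under both limits and that of 20 under the top 25%. The whole lists also held more mitotic than asynchronous peaks under each limit, 26032 against 23612 and 8389 against 8009. The cause was not tested. A reciprocal overlap of 50% lowered the met shares to 55.5% (asynchronous) and 59.3% (mitotic) on chromosome 2 and 54.3% and 60.5% on 20. The fixed limit gave 93.5% and 83.2% on chromosome 2 and 94.2% and 89.0% on 20. Whole-list met shares are given only for any overlap without a limit, so these shares have none beside them. A gap of 20 kb made the chromosome 20 covered share 84.2% and 84.9%. Leading distances moved with ends (4024 and 4775 bp) and midpoints (1489 and 2789 bp) on chromosome 2 and with mitotic midpoints (3811 bp) on 20. Bins differing over 1.5 times numbered 2 of 50 on chromosome 2 with 50 kb bins, and 12 of 87 and 2 of 23 on chromosome 20 with 50 and 200 kb. The share over all chromosomes is given only for bins of 100 kb, so these counts have no whole-series share beside them. Of 48 alternative values, 24 stayed close and the others moved or turned.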

Other observations

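Fewer mitotic peaks with more covered length, as on chromosomes 2 and 20, were common among family 2 arrays. Family 2 was assigned from textbook knowledge, not from the files, to chromosomes 2, 4, 8, 9, 13, 14, 15, 18, 20, 21 and 22, after the values had been seen, so no test was made. In the largest regions of these 11 chromosomes covered length was higher in the mitotic list in 11, with ratios from 1.003 to 1.04 and a median of 1.02. Among the other 12 it was higher in 3, with ratios from 0.906 to 1.11 and a median of 0.964. Fewer peaks together with more covered length were found in 9 of 11 and 2 of 12. The family 2 exceptions were chromosome 4, with a peak ratio of 1.23, and chromosome 14, with 1.004; the others were chromosomes 6 and 12, with 0.983 and 0.955. Arrays of a family share related sequence and all come from the same merged libraries, so they are not independent.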
